A study of Mus musculus with 38 samples.

Results

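The adipocyte genes Adipoq, Plin1, Cidec, Adig, Lep, Retn, Fabp4, Cfd, Pparg and Lpl were followed in the mouse gut wall. These 10 genes were taken by symbol from the 55416 gene identifiers of the series, and all 10 passed the filter on low counts in all 3 count tables. The series is bulk RNA sequencing of mouse intestinal tract, from work on black rice in the diet and colorectal cancer. Samples of the Apc set, named so in their titles and with columns named Colon, formed black rice, control and WT arms of 6 libraries, 3 bearing the code F and 3 the code M. Samples of the AOM set formed a black rice and a control arm of the same make-up. The third set, whose table name carries the unexplained letters FMT, had 4 libraries per arm, black rice or control, and no F or M code. Strain, alleles, carcinogen dose, age, feeding record and dissection are not given in the labels used here, and neither is a treatment for the WT arm. The labels do not say that libraries of a group came from separate animals, so p-values measure the spread between these libraries only.

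White adipocytes store triglyceride in a large lipid droplet and secrete hormones called adipokines. The nuclear receptor PPARgamma, encoded by Pparg, drives their differentiation and is also abundant in colonocytes. In the gut, adipocytes lie mainly in the mesenteric fat, which joins the serosal side of the bowel wall and is covered by mesothelium. Adipoq, Lep, Retn and Cfd encode secreted products, Plin1 and Cidec encode lipid droplet proteins, Adig encodes a small adipocyte protein, Fabp4 encodes a fatty acid carrier, and Lpl encodes the lipase that frees fatty acids from circulating lipoproteins. Fabp4, Cfd, Pparg and Lpl are also expressed by other cells, among them endothelium, macrophages and epithelium. In bulk tissue, fewer cells of a type and less RNA per cell cannot be told apart.

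RefSeq promoter entries of the GRCm38.p6 assembly, running from 250 bases before to 50 bases after a gene's start, were found for 8 of the 10 members (11 promoters), and not for Fabp4 and Lpl. The 4 promoters shown belong to genes whose levels correlated with each other across libraries, 2 with and 2 without a match, and capitals mark matches to TTGCNNAA, a form of the sequence bound by C/EBP proteins. The Adipoq window lies on the plus strand at chr16:23146286-23146585, that of Plin1 on the minus strand at chr7:79732727-79733026, that of Cfd on the plus strand at chr10:79890603-79890902 and that of Lep on the plus strand at chr6:29059971-29060270.
Adipoq: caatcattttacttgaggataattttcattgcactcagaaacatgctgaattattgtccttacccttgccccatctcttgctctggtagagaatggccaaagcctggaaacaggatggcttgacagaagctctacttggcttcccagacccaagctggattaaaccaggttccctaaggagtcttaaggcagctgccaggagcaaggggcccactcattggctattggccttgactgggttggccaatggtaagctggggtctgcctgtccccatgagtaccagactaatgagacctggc
Plin1: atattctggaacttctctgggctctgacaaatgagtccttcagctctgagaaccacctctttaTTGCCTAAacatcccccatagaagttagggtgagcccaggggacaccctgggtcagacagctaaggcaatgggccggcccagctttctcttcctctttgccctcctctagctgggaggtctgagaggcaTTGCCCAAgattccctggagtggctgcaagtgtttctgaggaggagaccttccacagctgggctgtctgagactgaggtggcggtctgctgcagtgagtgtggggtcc
Cfd: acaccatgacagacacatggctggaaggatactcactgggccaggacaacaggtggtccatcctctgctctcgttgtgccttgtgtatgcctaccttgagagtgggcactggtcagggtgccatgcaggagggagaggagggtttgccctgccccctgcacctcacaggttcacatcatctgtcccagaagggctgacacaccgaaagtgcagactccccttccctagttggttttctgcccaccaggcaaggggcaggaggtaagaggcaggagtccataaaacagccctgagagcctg
Lep: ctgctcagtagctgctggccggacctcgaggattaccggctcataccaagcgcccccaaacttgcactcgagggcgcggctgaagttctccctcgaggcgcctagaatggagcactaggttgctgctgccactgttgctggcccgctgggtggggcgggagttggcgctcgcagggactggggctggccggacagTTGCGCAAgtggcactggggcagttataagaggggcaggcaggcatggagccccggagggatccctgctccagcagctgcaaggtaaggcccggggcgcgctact
Searched on both strands, TTGCNNAA stood once in the Lep window and at 2 places in the Plin1 window. It was also found in 1 of the Cidec and 1 of the Pparg promoters, and not in the Adipoq, Cfd, Retn or Adig windows. In all 4 of the 11 member promoters held it, and 10.8% of 32851 promoters of this length do. A direct repeat of AGGNCA with 1 base between, the arrangement bound by PPAR with its partner RXR, was found in none of the 11 member promoters and in 0.381% of all promoters. TATAAA was found in 1 of the 11, a Pparg start, and in 13.6% of all promoters. The motifs did not overlap one another in these windows, and binding was not tested.

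Library depth ran from 44796449 to 61888458 counts in the Apc set, from 37908841 to 55089368 counts in the 11 AOM libraries used, and from 66610853 to 91051239 counts in the third set. Levels are CPM, the counts of a gene scaled to the library total. A count of 0 allows a level of up to 0.0329 to 0.0791 CPM depending on the library, for counting error only. AOM black rice F replicate 3 was left out of the fits: it had 5373366 counts and 201000 CPM over 6 hepatocyte genes, against at most 130 CPM in any other library. Its Adipoq level was 1.67 CPM and its Cfd level 8.19 CPM. All 10 genes listed for gut epithelium were detected in every library, with a summed level of 8370 to 33600 CPM outside that library and 492 CPM in it.

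Most of the adipocyte genes differed widely between libraries of the same group. Adiponectin (Adipoq, ENSMUSG00000022878) is an adipokine made almost only by adipocytes. In the Apc set it measured 24.8, 163 and 0.833 CPM in the black rice F libraries and 17.3, 12.8 and 4.13 CPM in control F. The WT F libraries gave 37.6, 2.35 and 49.8 CPM. In the M libraries Adipoq measured 1.35, 14.7 and 2.27 CPM on black rice, 8.11, 29.9 and 2.1 CPM in the controls, and 0.0856, 0.0569 and 7.65 CPM in WT. Black rice F replicate 2 was the highest of the 18 libraries, with 8393 reads, and WT M replicate 2 the lowest, with 3 reads. The ranges of all 6 groups overlapped.

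Group means of Adipoq in the Apc set ran from 62.9 ± 87.5 CPM in black rice F, through 29.9 ± 24.6 in WT F, 13.4 ± 14.6 in control M, 11.4 ± 6.69 in control F and 6.11 ± 7.46 in black rice M, to 2.6 ± 4.38 in WT M (SD, n = 3 each). Each neighbouring pair in this order differed by less than the larger of its SDs. Black rice F and WT F held the first and the second place for 9 of the 10 members; for Pparg, control F was first.

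**Figure D1:**
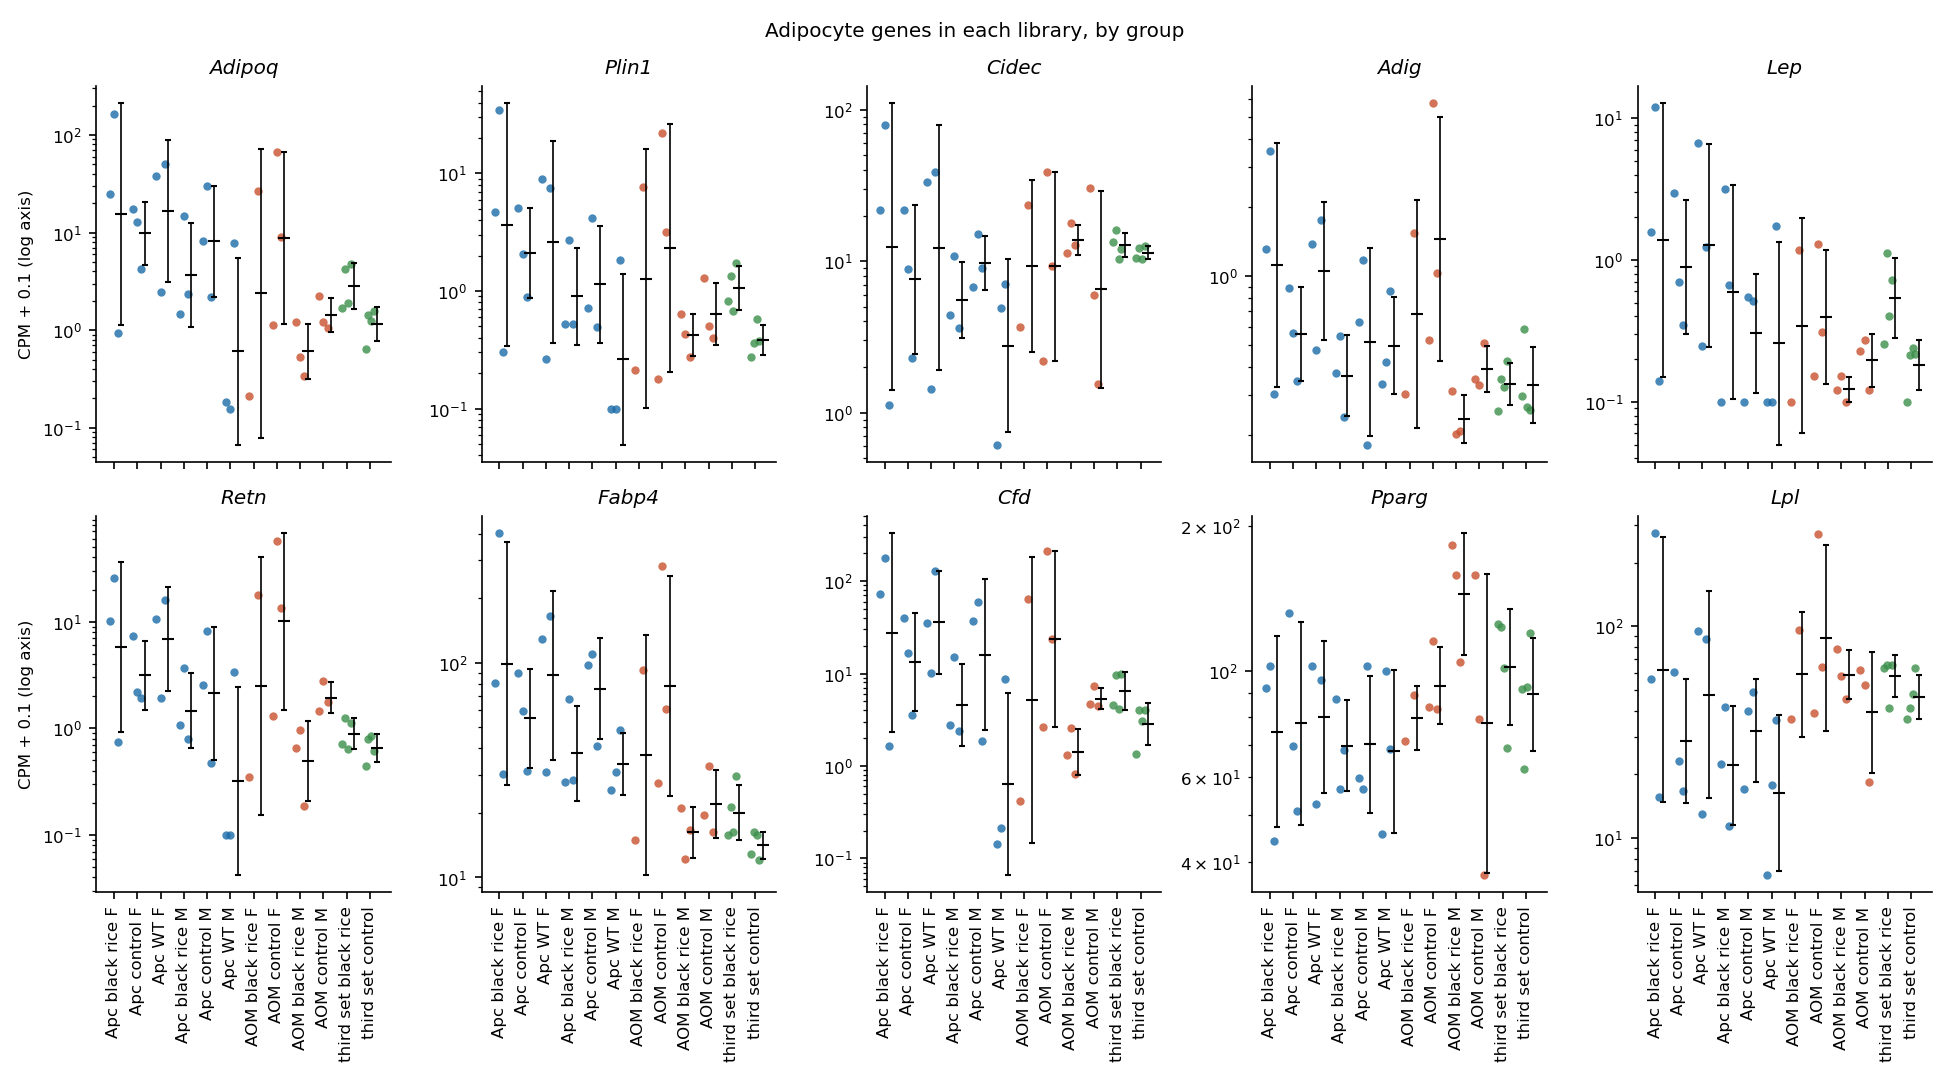
Level of each adipocyte gene in each library by group, as CPM + 0.1 on a log axis; points are libraries, and black marks with bars are the mean and SD of log2(CPM + 0.1) in a group. Adipoq runs from 0.0569 to 163 CPM in the Apc set, while Pparg runs from 44.2 to 132 CPM.

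WT M replicates 1 and 2 stood apart from the other Apc libraries. They had no read of Plin1 (ENSMUSG00000030546), which coats the adipocyte lipid droplet, of Lep (ENSMUSG00000059201), the satiety hormone leptin, or of Retn (ENSMUSG00000012705), the hormone resistin. Lep also had no read in black rice M replicate 1 and control M replicate 1. Counts of 0 allow up to 0.0642 and 0.0569 CPM in WT M replicates 1 and 2. Cfd (ENSMUSG00000061780), the complement protease adipsin, stood at 0.0428 and 0.114 CPM in them, from 2 reads in replicate 1. The same libraries held 25.4 and 31 CPM of Fabp4 (ENSMUSG00000062515), 6.61 and 17.8 CPM of Lpl (ENSMUSG00000015568), and 45.6 and 99.7 CPM of Pparg (ENSMUSG00000000440). Cidec (ENSMUSG00000030278), which helps lipid droplets fuse, was at 0.514 and 4.78 CPM, and Adig (ENSMUSG00000044405) at 0.235 and 0.322 CPM. Fabp4, Lpl, Pparg, Cidec and Adig thus had reads where Plin1, Lep and Retn had none.

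From the lowest to the highest Apc library, Plin1 spanned at least 537-fold, Retn at least 396-fold and Lep at least 216-fold, each against the level that 3 reads give in the lowest library. Cidec spanned 153-fold, Lpl 41.8-fold, Adig 41.7-fold, Fabp4 15.8-fold and Pparg 2.99-fold. Pparg, the regulator of the adipocyte programme, had the smallest span of the 10.

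In the AOM set, Adipoq stood at 0.113 and 26.6 CPM in the black rice F libraries used, and at 1.03, 66.4 and 8.95 CPM in control F. The M libraries held 1.11, 0.435 and 0.243 CPM on black rice, against 2.14, 1.12 and 0.944 CPM in the controls. Control F replicate 2 was the highest library for 9 of the 10 members, with 57.3 CPM of Retn, 212 CPM of Cfd and 283 CPM of Fabp4. Pparg was highest in black rice M replicate 1, at 183 CPM. From lowest to highest library Cfd spanned 671-fold, Retn 649-fold, Adipoq 588-fold, Adig 55.3-fold, Cidec 26.9-fold, Fabp4 23.4-fold, Lpl 14.9-fold and Pparg 4.88-fold.

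The third set spanned less. Adipoq measured 1.6, 4.13, 1.8 and 4.65 CPM in the black rice libraries and 0.549, 1.34, 1.14 and 1.47 CPM in the controls. From lowest to highest library Plin1 spanned 9.2-fold, Adipoq 8.47-fold, Cfd 7.79-fold, Retn 3.41-fold, Adig 3.13-fold, Fabp4 2.46-fold, Pparg 2.01-fold, Lpl 1.8-fold and Cidec 1.57-fold. Lep had 0 reads in control replicate 1 and was at least 31-fold higher in black rice replicate 2, against 3 reads in that control library.

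Per kilobase of merged exon (GENCODE M21 gene models), Pparg was the most abundant member in 12 of 18 Apc, 9 of 11 AOM and 8 of 8 third-set libraries, and Cfd was in the remaining 6 and 2. The median level of Pparg was 23.4 CPM per kilobase in the Apc set, 30.1 in the AOM set and 32.8 in the third set. Adipoq had medians of 5.71, 0.804 and 1.11 CPM per kilobase in the same order, and Cidec had 4.22, 6.09 and 6.49. Lep, at medians of 0.152, 0.0157 and 0.0438 CPM per kilobase, had the lowest median of the 10 in each set.

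Whether the members moved together was measured as the correlation of log2(CPM + 0.1) with Adipoq across the libraries of a set. There were 27 relations, 9 per set, with two-sided permutation p-values adjusted over all 27. In the Apc set (n = 18), 8 of 9 members had an adjusted p under 0.05. Pearson's r was 0.97 for Plin1 (Spearman's rho 0.96), 0.97 for Retn (rho 0.98) and 0.96 for Cfd (rho 0.95). For these genes the permutation p of both r and rho was 1e-05, the smallest that 100000 resamples can give, and the adjusted p was 5.4e-05 for r and 6.7e-05 for rho. For Fabp4 r was 0.88 (rho 0.92), for Cidec 0.85 (rho 0.87), for Lpl 0.82 (rho 0.79), for Adig 0.81 (rho 0.89) and for Lep 0.81 (rho 0.79), with permutation adjusted p for r of at most 1e-04. Pparg gave r = 0.36 and rho = 0.38, with permutation adjusted p of 0.16 and 0.15.

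The Apc relations did not rest on the WT M libraries of very low level. Without WT M replicates 1 and 2, which lie farthest from the median of Adipoq, r was 0.97 for Plin1, 0.95 for Retn, 0.93 for Cfd, 0.94 for Fabp4 and 0.91 for Cidec. Measured on deviations from the group means, r was 0.98 for Plin1, 0.96 for Retn, 0.95 for Cfd and 0.89 for Fabp4. In both cases 8 of 9 members again had an adjusted p under 0.05.

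**Figure D2:**
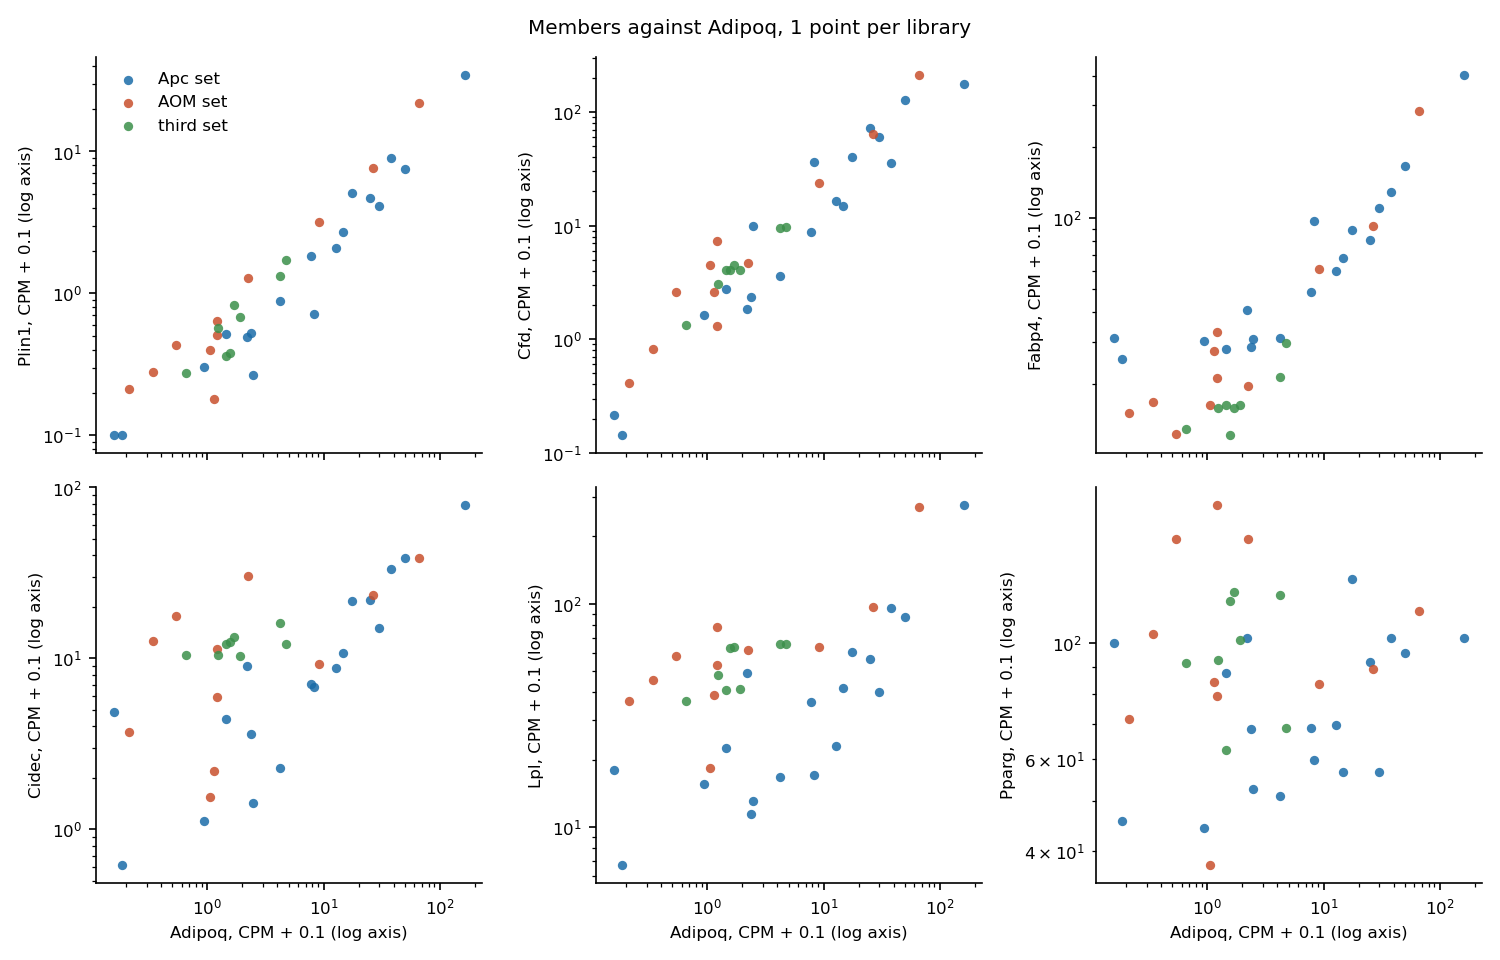
Plin1, Cfd, Fabp4, Cidec, Lpl and Pparg against Adipoq, 1 point per library, both axes CPM + 0.1 on log scales, coloured by set. Plin1 and Cfd follow Adipoq with r of 0.97 and 0.96 in the Apc set, and Pparg gives r = 0.36 in the Apc set and 0.07 in the AOM set.

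Across the 11 AOM libraries 7 of 9 members passed. Cfd gave r = 0.97 (rho 0.93), Plin1 0.96 (rho 0.89), Retn 0.96 (rho 0.88), Lep 0.94 (rho 0.92), Fabp4 0.94 (rho 0.89), Adig 0.93 (rho 0.83) and Lpl 0.76 (rho 0.81). Cidec (r = 0.54, rho = 0.54) and Pparg (r = 0.07, rho = 0.2) had permutation adjusted p for r of 0.11 and 0.86. Without black rice F replicate 2 and control F replicate 2, the libraries with most Adipoq, r was 0.9 for Cfd and 0.86 for Plin1. For Lpl it fell to 0.33 (rho 0.65), and Lpl no longer passed. On deviations from the group means r was 0.96 for Cfd and 0.97 for Plin1. After adjustment 3 of 9 members passed, namely Plin1, Lpl (r = 0.81) and Pparg (r = 0.39). Lep (r = 0.95), Retn (0.94), Fabp4 (0.92) and Adig (0.91) did not pass. Values were shuffled within small groups here, which allows few orders, so passing does not tell which members follow Adipoq.

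In the third set (n = 8), 6 of 9 members passed the exact permutation test of r after adjustment, and 4 of 9 that of rho; Retn and Fabp4 passed by r alone, with exact permutation adjusted p for rho of 0.18 and 0.062. Cfd gave r = 0.98 (rho 0.98), Lep 0.96 (rho 0.9), Plin1 0.92 (rho 0.9), Retn 0.87 (rho 0.57), Fabp4 0.86 (rho 0.74) and Lpl 0.73 (rho 0.79). Cidec (r = 0.62), Adig (r = 0.32) and Pparg (r = 0) did not pass. Without black rice replicates 2 and 4 the test kept 2 of 9 members, Cfd (r = 0.97) and Lep (r = 0.93), and on deviations from the group means it kept 1, Cfd (r = 0.97). Without those 2 black rice libraries Plin1 (r = 0.71, rho = 0.77), Retn (0.63, 0.03), Fabp4 (0.49, 0.37) and Lpl (0.53, 0.54) did not pass. With 6 libraries left, failing to pass cannot tell a lost relation from too few libraries.

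Cidec is both a lipid droplet gene of adipocytes and a PPARgamma target, and its relation with Pparg was examined after the values were seen. Since the pair was chosen from these same libraries, its p-values are a description and not an independent test. Across the Apc libraries Cidec and Pparg gave r = 0.74 and rho = 0.72 (permutation p = 0.00049 and 0.0012; adjusted over the 3 sets 0.0015 and 0.0035). In the AOM set they gave r = 0.74 and rho = 0.73 (permutation p = 0.0083 and 0.014; adjusted 0.012 and 0.022), and in the third set r = 0.38 and rho = 0.5 (exact permutation p = 0.35 and 0.22). Without the 2 libraries farthest from the median of Pparg, r was 0.7 in the Apc set, 0.7 in the AOM set and 0.87 in the third set. On deviations from the group means r was 0.77, 0.76 and 0.31 (permutation adjusted p 0.023, 0.046 and 0.51). The rho was 0.7, 0.63 and 0.43 there (permutation adjusted p 0.035, 0.16 and 0.36). Single AOM libraries lay near this relation or apart from it. Control M replicate 1 had 30.2 CPM of Cidec with 158 CPM of Pparg and 2.14 CPM of Adipoq, and control M replicate 3 had 1.44 CPM of Cidec with 37.5 CPM of Pparg and 0.944 CPM of Adipoq. The library with most Pparg, black rice M replicate 1 at 183 CPM, had 11.3 CPM of Cidec, and the library with most Cidec, control F replicate 2 at 38.8 CPM, had 115 CPM of Pparg and 66.4 CPM of Adipoq.

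Read ratios within a library were compared where both genes had at least 20 reads. Plin1 gave 0.0766 to 0.311 reads per Adipoq read in 13 Apc libraries, 0.284 to 0.551 in 6 AOM libraries and 0.189 to 0.455 in 7 third-set libraries. Cfd gave 0.833 to 4.51 in 16 Apc libraries, 1.08 to 6.47 in 8 AOM libraries and 2.08 to 2.94 in 8 third-set libraries. Pparg per Adipoq read ran far wider, from 0.628 to 64.7 in the Apc set, from 1.73 to 165 in the AOM set and from 14.8 to 167 in the third set. Fabp4 lay between, at 2.47 to 36.1, 3.49 to 29.3 and 5.13 to 23.1. Cidec also varied, at 0.484 to 4.26, 0.585 to 14.1 and 2.57 to 18.9, as did Lep, at 0.0151 to 0.25 in 11 Apc libraries. Retn ran from 0.156 to 0.78, 0.5 to 2.41 and 0.216 to 0.659. Libraries with fewer reads are absent from these ranges.

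An adipocyte score, the mean log2(CPM + 0.1) of Adipoq, Plin1, Cidec, Adig, Lep and Retn, was set against every gene with a mean of at least 0.5 CPM in each set. The score holds Cidec, whose correlation with Adipoq did not pass in the AOM set (r = 0.54) or the third set (r = 0.62). It also holds Adig, which did not pass in the third set (r = 0.32). Genes were ranked by the lowest of their 3 Pearson r over the 18, 11 and 8 libraries. Of the 16344 genes with a mean of at least 0.5 CPM in each set, those without a symbol or with a symbol of predicted or clone-based genes were left out. Of the 14273 genes ranked, 0.224% had a lowest r above 0.5. Cfd ranked 6 (lowest r 0.92), Fabp4 ranked 7 (0.89) and Lpl ranked 13 (0.67), although the score does not contain them, and Pparg ranked 4596 (-0.03). The 10 other genes most like the score were Car3 (lowest r 0.97), Cyp2e1 (0.93), Trarg1 (0.87), Scd1 (0.86), Amy1 (0.72), Abcd2 (0.7), Cd36 (0.69), Thrsp (0.67), Slc1a3 (0.66) and Arxes2 (0.63). Among them, 5 stood in the list of 22 other adipocyte genes. Car3, a carbonic anhydrase, had mean levels of 80.9 CPM in the Apc set, 46 CPM in the AOM set and 12.2 CPM in the third set.

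Other cell types were followed through marker lists, whose mean log2 levels were set against the same score as a description. The 22 other adipocyte genes gave r = 0.93 (rho 0.95) in the Apc set, 0.95 (rho 0.8) in the AOM set and 0.82 (rho 0.79) in the third set. Mesothelium, the lining of the serosa, gave r = -0.03 (rho -0.01), 0.27 (rho 0.31) and 0.62 (rho 0.69) in the same order. Smooth muscle gave 0.31, 0.06 and 0.17, vascular endothelium 0.19, 0.27 and 0.2, macrophages -0.08, 0.22 and -0.35, and gut epithelium 0.22, 0.06 and -0.39. Brown fat genes gave 0.41, 0.64 and 0.38, and fibroblast and adipocyte progenitor genes -0.07, 0.14 and 0.06. After adjustment of the permutation p for r, 1 of 14 lists passed in the Apc set, 1 in the AOM set and 0 in the third set. For rho the counts were 1, 0 and 0. Without the 2 libraries farthest from the median of the score, the counts for r were also 1, 0 and 0. The highest r of a list in the AOM set was then 0.78, with 9 libraries left. Of 126 list relations under other settings 22 changed sign. In the AOM set r was above 0 for 12 of 14 lists, and for 6 of 14 on deviations from the group means. WT M replicate 2, which had 3 reads of Adipoq, had a mesothelial level of 28 CPM over 7 genes in an Apc range of 3.87 to 29.8 CPM, and AOM control F replicate 2, the highest in Adipoq, had 6.46 CPM.

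**Figure D3:**
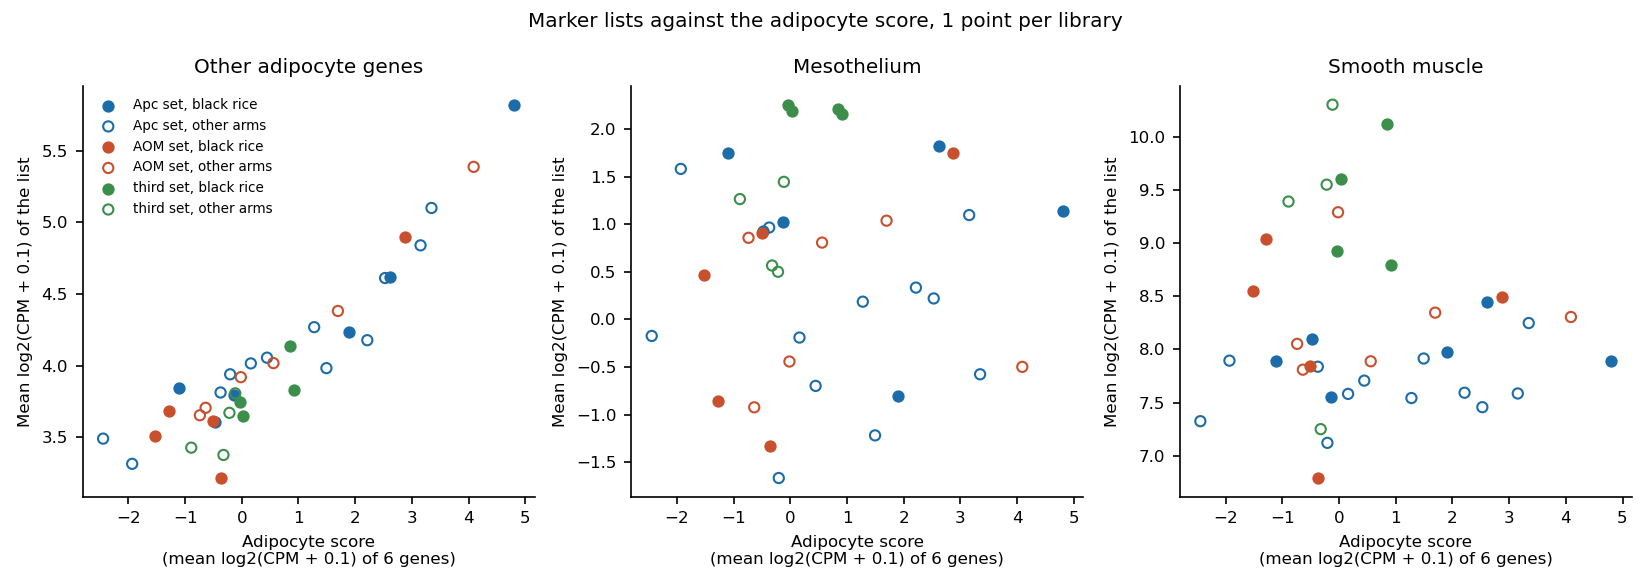
Mean log2(CPM + 0.1) of the other adipocyte genes, of mesothelium and of smooth muscle against the adipocyte score, 1 point per library, coloured by set, filled for black rice and open for the remaining arms. In the Apc, the AOM and the third set r is 0.93, 0.95 and 0.82 for other adipocyte genes, -0.03, 0.27 and 0.62 for mesothelium and 0.31, 0.06 and 0.17 for smooth muscle, and the filled third-set points lie above the open ones for mesothelium.

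Black rice was then compared with control in each set with edgeR's quasi-likelihood test, adjusted over all genes of a table by Benjamini-Hochberg. In the Apc set over both codes, none of the 10 members passed an adjusted p of 0.05, against 0.0139% of 21624 genes. DESeq2 called 200 genes and none of the members. None of the members had an unadjusted p under 0.05 in edgeR, against 10.3% of all genes. The median log2 difference was 0.39 over the members and -0.01 over all genes. Lep differed by 1.91 (SE 1.35, adjusted p = 0.64), Plin1 by 0.83 (SE 1.16), Adipoq by 0.62 (SE 1.13), Cfd by -0.16 (SE 1.11) and Pparg by -0.05 (SE 0.31). In F libraries 9 of 10 values were above 0 (median 1.69; of all genes edgeR called 0, with 2215 at an unadjusted p under 0.05, and DESeq2 182), and in M libraries 8 of 10 were below 0 (median -0.84, 0.0324% of all genes called); no member passed in either. The F difference minus the M difference was 3.6 for Adipoq (SE 2.31), 4.33 for Cfd (SE 2.32) and 2.45 for Fabp4 (SE 1.11, edgeR unadjusted p = 0.0427, adjusted p = 0.539). Fabp4 was the only member with an unadjusted p under 0.05 in this interaction, where calls over all genes numbered 0 in edgeR (1923 at an unadjusted p under 0.05) and 105 in DESeq2, none of them a member. Without black rice F replicate 2, the median of the F difference was 0.07. Mesothelial genes had values above 0 for 7 of 7 over both codes (median 1.04, 3 at an unadjusted p under 0.05, none past adjustment), with sums of 5.72 to 29.8 CPM on black rice, against 3.87 to 12.4 CPM in the controls. Smooth muscle genes were above 0 for 10 of 10 (median 0.44, 7 at an unadjusted p under 0.05), with sums of 3410 to 6580 against 2720 to 3980 CPM. Macrophage genes were below 0 for 6 of 7 (median -0.55, 3 at an unadjusted p under 0.05), with sums of 120 to 361 against 205 to 355 CPM. None of these genes passed adjustment and their part in the adipocyte values was not tested.

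In the AOM set 9 of 10 members had values below 0 on black rice and none passed (edgeR called 0 of 21895 genes, with 671 at an unadjusted p under 0.05, and DESeq2 10). The median was -0.97 over the members and -0.02 over all genes. Retn differed by -1.6 (SE 1.06), Cfd by -1.55 (SE 1.15), Adig by -1.22 (SE 0.73), Adipoq by -1.06 (SE 1.14) and Pparg by 0.25 (SE 0.37), each at an adjusted p of 1. No member had an unadjusted p under 0.05 in edgeR, and none passed in DESeq2. The interaction with code gave 0 of 10 on the same counts; over all genes edgeR called 0, with 3063 at an unadjusted p under 0.05, and DESeq2 141. Macrophage genes were below 0 for 7 of 7 (median -0.62, 6 at an unadjusted p under 0.05) and lymphoid follicle genes for 5 of 5 (median -1.77, 3 at an unadjusted p under 0.05), none past adjustment, and their part was not tested. The member values turned on single libraries. Without black rice F replicate 2 the median was -2.86, and without control F replicate 2 it was 0.18. Leaving out black rice F replicate 2 leaves 1 library in its group, which is assumed to vary like the others.

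Control was compared with WT in the Apc set, where again none of the 10 members passed in edgeR or in DESeq2, or had an unadjusted p under 0.05. Over all genes edgeR called 0, with 918 at an unadjusted p under 0.05, and DESeq2 24. Adipoq differed by 0.54 (SE 1.13), Cfd by 1.02 (SE 1.13), Lep by -0.92 (SE 1.35) and Pparg by -0.03 (SE 0.31), with a median of 0.11. Black rice against WT gave a median of 0.55 and no call among the members by either tool (0.0139% of all genes in edgeR). At an unadjusted p under 0.05 there were 0 members, against 8.17% of all genes. The WT libraries are shared by both comparisons. Without WT M replicate 3, the only WT M library with an Adipoq level above 1 CPM, the medians were 1.6 and 2.1. In these fits 3 and 4 members had an unadjusted p under 0.05. That count was not made over all genes in any fit with a library left out.

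**Figure D4:**
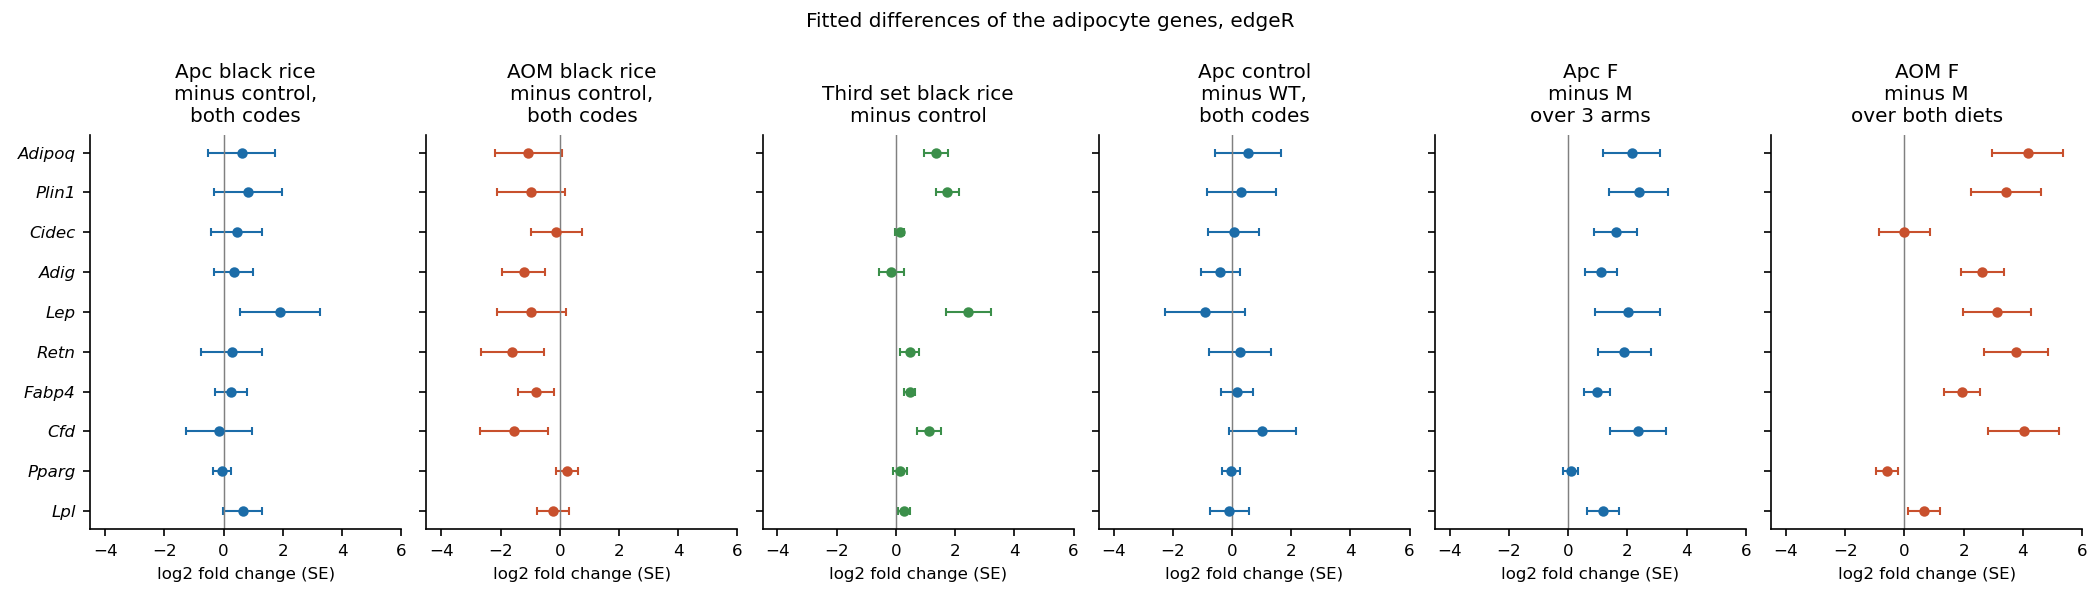
Log2 fold change of each adipocyte gene with its SE in 6 comparisons fitted in edgeR. Values in the F minus M panels lie above 0 for all 10 members in the Apc set and for 8 in the AOM set, with no adjusted p under 0.05, and Pparg lies near 0 in the Apc panels.

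Fitted differences between libraries coded F and coded M were above 0 for 10 of 10 members in the Apc set and 8 of 10 in the AOM set, and none passed adjustment. In the Apc set Adipoq ran from 0.833 to 163 CPM with a median of 17.3 CPM in 9 F libraries, and from 0.0569 to 29.9 CPM with a median of 2.27 CPM in 9 M libraries. Plin1 had medians of 4.63 and 0.425 CPM, Cfd 35.4 and 2.68 CPM, and Retn 7.23 and 0.985 CPM in F and M. Pparg had 92 and 68.4 CPM. The F and M ranges overlapped for every one of the 10 genes. The log2 difference over the 3 arms was 2.38 for Plin1 (SE 0.99, adjusted p = 0.283), 2.36 for Cfd (SE 0.96, adjusted p = 0.274), 2.14 for Adipoq (SE 0.96, adjusted p = 0.315) and 0.08 for Pparg (SE 0.25, adjusted p = 0.896) in edgeR.

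The Apc median over the 10 members was 1.75, against 0.01 over all genes. In edgeR 0 of 10 members passed (0.074% of all genes), 7 had an unadjusted p under 0.05 and were higher in F (6.72% of all genes), and DESeq2 called none. The count of 7 was 0 without black rice F replicate 2 or control F replicate 1. It was 1 without black rice M replicate 1 or 3, control M replicate 1 or WT F replicate 3, 2 without WT F replicate 1 or WT M replicate 1 or 2, and 3 without control M replicate 3. With the replicate number as a block it was 3. Of the 22 other adipocyte genes 21 were above 0, with a median of 0.50 and 8 at an unadjusted p under 0.05, none past adjustment. In the list of exocrine pancreas genes 2 were tested in this contrast (median -1.01), and 1 of them was called lower in F. Its part in the adipocyte values was not tested.

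In the AOM set Adipoq ran from 0.113 to 66.4 CPM with a median of 8.95 CPM in 5 F libraries, and from 0.243 to 2.14 CPM with a median of 1.03 CPM in 6 M libraries. Retn had medians of 13.4 and 1.11 CPM, Fabp4 61 and 18 CPM, and Cfd 23.7 and 3.43 CPM. Cidec had 9.2 and 11.9 CPM and Pparg 83.9 and 131 CPM, both with the higher median in M. Fitted differences were 4.17 for Adipoq (SE 1.2), 4.03 for Cfd (SE 1.19), 3.76 for Retn (SE 1.08) and 2.63 for Adig (SE 0.72), all with an edgeR adjusted p of 0.571, and 0 for Cidec (SE 0.87) and -0.59 for Pparg (SE 0.38). The member median was 2.88, against -0.01 over all genes.

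None of the 10 members passed in the AOM fit (0.0365% of all genes) or in DESeq2. At an unadjusted p under 0.05, 7 of 10 were higher in F (5.6% of all genes). That count was 0 without black rice F replicate 2, where the median was 0.73, and 3 with the replicate number as a block. In the same contrast 7 of 7 macrophage genes (median 0.98) and 5 of 5 lymphoid follicle genes (median 2.28) had an unadjusted p under 0.05 and values above 0, as had 3 of 5 lymphatic endothelial genes (median 1.11), and none passed adjustment. The summed macrophage level was 146 to 389 CPM in F and 65.8 to 206 CPM in M libraries, and the follicle sum was 11.2 to 295 CPM in F and 3.61 to 66.6 CPM in M; all their genes were detected. Their part in the adipocyte values was not tested.

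In the third set Adipoq, Plin1, Lep and Cfd were higher in every black rice library than in any control library. Plin1 measured 0.727, 1.23, 0.58 and 1.62 CPM on black rice, against 0.176, 0.26, 0.473 and 0.278 CPM in the controls. Cfd measured 4.45, 9.47, 4 and 9.66 CPM on black rice, against 1.24, 3.95, 2.96 and 3.98 CPM in the controls, so that the groups are separated by 3.98 against 4 CPM. Lep measured 0.155, 1.02, 0.303 and 0.626 CPM on black rice, against 0, 0.113, 0.139 and 0.119 CPM in the controls. Black rice replicates 2 and 4 were the highest for all 4 genes. Over all 20831 genes tested 3.13% had this order without overlap. With CPM scaled by TMM factors the order held for 3 members, and the Cfd ranges overlapped. Fabp4 (15.7 to 29.5 against 12 to 16.2 CPM), Retn, Lpl, Cidec, Adig and Pparg overlapped between the arms.

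Fitted log2 differences were 2.44 for Lep (SE 0.76, adjusted p = 0.545), 1.74 for Plin1 (SE 0.39, adjusted p = 0.467), 1.36 for Adipoq (SE 0.41, adjusted p = 0.521), 1.12 for Cfd (SE 0.41, adjusted p = 0.587) and 0.47 for Fabp4 (SE 0.19, adjusted p = 0.613) in edgeR. Retn (0.46, SE 0.33), Lpl (0.27, SE 0.19), Pparg (0.15, SE 0.24), Cidec (0.13, SE 0.16) and Adig (-0.16, SE 0.42) lay nearer 0. None of the 10 members passed in edgeR, in which 0 genes of the table were called and 1653 had an unadjusted p under 0.05, and 5 members had an unadjusted p under 0.05 and were higher (4.12% of all genes). DESeq2 called 132 genes and 1 member, Plin1 (adjusted p = 0.0109). The count of 5 was 3 without black rice replicate 2 or 4. The median over the members was 0.47, against 0.01 over all genes.

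Mesothelial and macrophage genes differed in the same contrast without passing adjustment. All 7 of the mesothelial list had higher levels in every black rice library than in any control, with log2 differences of 0.75 to 1.56 (median 1.17), 7 of 7 at an unadjusted p under 0.05 and none past adjustment in edgeR (adjusted p 0.438 to 0.545). Upk3b differed by 0.96 (SE 0.32) and Upk1b by 0.75 (SE 0.22). The summed level of the list was 41.5, 36.9, 37.9 and 38.4 CPM on black rice, against 20.3, 25, 12.3 and 12.5 CPM in the controls, and none of the 7 was at 0 in any third-set library. Of the 22 other adipocyte genes, 3 were above every control in every black rice library, namely Car3 (log2 difference 1.2, SE 0.3), Trarg1 (0.86, SE 0.24) and Cd36 (0.81, SE 0.26), and the list had a median of 0.20 with 16 genes above 0. Fasn (-0.39, SE 0.14) and Agpat2 (-0.31, SE 0.13), enzymes of lipid synthesis, were below 0 at an unadjusted p under 0.05. Macrophage genes were below 0 for 6 of 7 (median -0.48, 4 at an unadjusted p under 0.05), with sums of 75.1 to 121 CPM on black rice and 110 to 173 CPM in the controls. The part of the mesothelial and macrophage levels in the adipocyte values was not tested.

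Relatives of the members in the same gene families, such as the resistin-like, perilipin and fatty acid binding protein genes, were listed as 15 genes. None passed adjustment in edgeR in the black rice, WT or F minus M comparisons. Between black rice and control in the Apc set, 6 of the 15 were above 0 and 9 below, with a median of -0.01. At an unadjusted p under 0.05 there were 4 of them, against 10.3% of all genes. Among those above 0, Retnla differed by 2.67 (SE 0.55, edgeR adjusted p = 0.131). Retnlb, a goblet cell product, differed by 3.77 (SE 1.28, adjusted p = 0.367), while Retn itself differed by 0.27 (SE 1.04, adjusted p = 0.946). Epithelial PPAR target genes gave 0 of 7 past adjustment in the Apc and AOM black rice comparisons, with medians of -0.46 and 0.33. Within the Apc set the same comparison gave values below 0 for 7 of 7 in M (median -1.02). In M 6 of them had an unadjusted p under 0.05, against 8.54% of all genes. In F 3 of 7 were below 0 (median 0.10), with 0 at an unadjusted p under 0.05, against 10.2% of all genes. The interaction of these 7 genes was above 0 for 7 of 7 (median 1.12). Here 4 had an unadjusted p under 0.05, against 8.89% of all genes, with none past adjustment in edgeR.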

How the data were processed

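The authors deposited integer counts per gene in 3 tables. Per the file headers of the AOM and FMT tables, reads were counted per exon and summed per gene with featureCounts 2.0.1 on Ensembl 104 (GRCm39) with no strand option, so reads of overlapping or antisense genes cannot be told apart. The Apc table has no such header; the submitters' processing notes list FastQC, fastp, HISAT2, SAMtools and featureCounts without a version. The 10 members and all gene lists were chosen with earlier results of these data known. From the counts, CPM and log2(CPM + 0.1) were computed per library, and symbols were matched for 52083 of 55416 identifiers. Each table was fitted alone over group means with TMM scaling, edgeR's low-count filter and the quasi-likelihood test (edgeR 4.0.16 in R 4.3.3), and a call was an adjusted p under 0.05. DESeq2 1.42.0, other scaling, no filter, the replicate number as a block and leaving out each library were tried. Fits were tested on simulated data. Members were named in full. Likeness genes were the 10 non-members whose lowest r was highest among the genes ranked, which left out genes without a symbol and predicted genes. None of 42 library pairs within groups held identical values. No comparison was made between tables except as levels side by side, since they were normalized separately.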

Additional observations from a re-analysis of the deposited data

Results flagged for a closer look

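In groups of 4 libraries, where 20 sets of values were examined and chance marks about 1 in 20, a single library stood far from the other three in 3 of 20. Lpl was 41.2 CPM in third-set black rice replicate 3, Adig was 0.485 CPM in third-set control replicate 2, and Lep was 0 CPM in third-set control replicate 1.

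For several members every black rice library lay below the control mean in one set or code and above it in another, although single libraries of the arms overlapped in most of these cases. The difference of mean log2 CPM for Adipoq was -1.23 in AOM M and 1.29 in the third set. For Plin1 it was -0.59 and 1.48, and for Lep -0.68 and 1.56, in the same places. For Fabp4 it was -1 in Apc M, -0.43 in AOM M and 0.51 in the third set, and for Cfd -1.79, -1.93 and 1.17. These differences between sets were not tested, since the tables were normalized separately and the labels do not say how the sets differ. For Pparg the difference was -0.22 in AOM F and 0.89 in AOM M, and the interaction in edgeR was -0.96 (SE 0.75, adjusted p = 0.565).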

How the results depend on the processing

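Of 1667 member fold changes with 1 library left out, 116 changed sign, and of 467 under other alternatives 10 did. None of these was a call, and the only member called was Plin1 in the third set under DESeq2, 1 member. Leaving out each library in turn, the F minus M median ran from 1.14 to 2.8 in the Apc set and from 0.73 to 3.32 in the AOM set. The count of members at an unadjusted p under 0.05 ran from 0 to 9 and from 0 to 8, and from 3 to 6 in the third set. The black rice medians ran from 0.07 to 2.69 in Apc F and from -2.86 to 0.18 in the AOM set, and the AOM interaction ran from -3.73 to 1.18. Control minus WT ran from -0.29 to 1.6 and black rice minus WT from -0.24 to 2.1.

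Deviations of libraries sharing a replicate number had correlations from -0.54 to 0.43 in the Apc set, -0.29 to 0.38 in the AOM set and -0.6 to 0.45 in the third set. Their medians were -0.06, 0.1 and -0.35, against 0.01, -0.04 and 0.06 for unlike numbers. Correlations above 0.1 numbered 13 of 45, 7 of 15 and 1 of 4, against 32 of 90, 7 of 30 and 6 of 12. Control M and WT M of the Apc set gave 0.38, 0.38 and 0.42 for like numbers, so a pairing of some groups was not settled. With the replicate block the F minus M count at an unadjusted p under 0.05 was 3 in the Apc set and 3 in the AOM set, against 7 in each without it. On deviations from group means, 3 AOM members and 1 third-set member passed the test against Adipoq after adjustment. The median r of the 9 members was still 0.92 and 0.74 there, and shuffling within small groups allows few orders. Without the 2 farthest libraries 2 third-set members passed.

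Counts over all genes depended on the setting. Without the low-count filter they were 23 (Apc black rice minus control), 15 (F), 16 (M), 6 (interaction) and 6 (black rice minus WT). DESeq2 called 200, 182, 149, 105 and 71, and 24 for control minus WT, 525 for Apc F minus M, 10, 141 and 74 for the AOM diet, interaction and F minus M comparisons, and 132 in the third set. The block gave 0 (M), 0 (black rice minus WT), 10 (Apc F minus M) and 203 (AOM interaction); DESeq2-style size factors gave 0 for black rice minus WT. Depth limits Lep, Plin1 and Retn where libraries had no read.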
